A study of Mus musculus with 23 samples.

Results

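The immunoglobulin loci of the mouse, Igh (heavy chain), Igk (kappa light chain) and Igl (lambda light chain), were examined in CD4 naive T cells by the places where 4 CUT&Tag targets gave peaks. CUT&Tag marks the DNA near a target by means of a transposase brought there by an antibody. The members were all intervals of the 4 merged peak lists that overlapped, by at least 1 bp, the annotated spans of Igh (chromosome 12, 113258768 to 116009954), Igk (chromosome 6, 67555636 to 70726754) and Igl (chromosome 16, 19026858 to 19260844) in mm10. There were 163 of them, among 29060 peaks on the assembled chromosomes, with 107 in Igh, 56 in Igk and 0 in Igl. Igh was chosen by its number of R-loop peaks, so the R-loop values below are a description and carry no test.

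DDX55 knockout (KO) and wild-type (WT) mice gave the cells, taken from spleen and from the nodes that the labels call pLN. DDX55 is a DEAD-box RNA helicase. The series held KO and WT samples, 2 of each, for H3K9me3, RNA polymerase II and DDX55. R-loops (RNA paired to DNA, the other DNA strand left single) were mapped in 8 samples with the antibody S9.6, namely 2 KO with RNase H, 2 KO without, 2 WT with and 2 WT without. The RNase H samples received 20 U of the enzyme, which degrades RNA in hybrids. A further 2 HA-tag samples and 1 IgG sample, all labelled WT, were not analysed here. The strain, age and sex of the mice, and how the knockout was made, are not stated in the labels. For each target 1 merged list served KO and WT alike, and the R-loop list also served the samples given RNase H. Neither the KO against WT difference nor the effect of RNase H could therefore be measured, nor the spread over replicates, and the R-loop peaks are S9.6 peaks of unknown RNase H sensitivity. Whether the DDX55 peaks are lost in KO cells is likewise unknown. The lists give positions only, so depth and peak height were unknown, and fewer cells with signal cannot be told apart from less signal per cell.

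Immunoglobulin genes are assembled in developing B cells, where the RAG recombinase joins 1 variable (V), in Igh 1 diversity (D), and 1 joining (J) segment upstream of the constant (C) genes. Each Igh constant gene except Ighd is preceded by a repetitive switch region, and transcription through switch regions in activated B cells forms R-loops during class switching. T cells do not make immunoglobulin and assemble T cell receptor genes instead. H3K9me3 is the histone mark of constitutive heterochromatin and of many silenced gene clusters. The 3 loci are built from families of similar V segments and V pseudogenes, so reads of near-identical copies may be placed on the wrong copy, and the exact segment under a peak is uncertain.

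The annotation placed 251 genes in Igh, of which 121 were V segments, 63 V pseudogenes, 24 D or J segments or their pseudogenes, 8 constant genes and 35 other genes. Igk held 198, with 102 V segments, 60 V pseudogenes, 5 J segments, 1 constant gene (Igkc) and 30 others. Igl is far smaller, at 0.234 Mb against 2.75 Mb for Igh and 3.17 Mb for Igk. Distances to the nearest V segment and numbers of V segments per Mb, below, include V pseudogenes.

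The labelled cell type was checked against its markers by RNA polymerase II peaks within 3000 bp of either gene end. Such a peak lay at 14 of 20 CD4 naive T cell markers, including Ccr7, Cd2, Cd247, Cd28, Cd3d, Cd3e, Cd3g and Cd4. The widest at Cd4, the coreceptor gene, was 2180 bp. Cd4 was also met by R-loop, H3K9me3 and DDX55 peaks, at a gene end or inside the gene. Peaks there were thus not particular to RNA polymerase II, and the cause was not tested. T cell markers without an RNA polymerase II peak included Bcl11b, Gata3, Lat, Tcf7 and Thy1. Of 20 B cell markers 4 had a peak, namely Btk (917 bp), Cd79a (816 bp), Cxcr5 (442 bp) and Pou2af1 (646 bp). The signalling chain gene Cd79b and the defining B cell genes Cd22, Ms4a1, Pax5 and Ebf1 had none. Plasma cell markers had 4 of 7 (Irf4, Prdm1, Tnfrsf17 and Xbp1, but not Jchain, Mzb1 or Sdc1), and myeloid markers 2 of 8 (Cd68 and Fcgr3). Of all 21887 protein-coding genes 33.5% did, so the B cell share of 20.0% and the myeloid share of 25.0% lay below that background, and the T cell share of 70.0% and the plasma cell share of 57.1% above it. With a window of 1000 bp 2 B cell, 2 plasma cell and 1 myeloid markers had a peak, against 29.3% of protein-coding genes. Among the myeloid markers Fcgr3 also had H3K9me3 and DDX55 peaks, and Itgam had an R-loop peak. The RNA polymerase II peaks carry no heights, so the number of B cells among the cells used could not be estimated.

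R-loop peaks in Igh were many and wide, and 91 of the 97 lay in a single stretch of the V region. With neighbours up to 50000 bp apart put together, this stretch ran from 114962799 to 115952402 on chromosome 12 (0.990 Mb, 36.0% of the span), from Ighv1-44 to Ighv1-81. The count depends on that limit, which was set after seeing the peaks: with neighbours up to 20000 bp apart the largest stretch held 53. It lies at the distal side of the V cluster, the end farthest from the D, J and constant genes. Within it R-loop peaks covered 136584 bp, or 13.8%. Over the whole locus they covered 140106 bp (5.09% of the span, 35.3 peaks per Mb), against 0.0417% and 0.509 peaks per Mb over the rest of the assembled chromosomes.

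The median R-loop peak in Igh was 1125 bp wide, against 512 bp outside the 3 loci. Widths above 2000 bp were found for 17 of 97 peaks (17.5%) in Igh and for 86 of 1373 (6.26%) elsewhere. Igh thus held 6.59% of the R-loop peaks but 11.1% of the base pairs in that list. The narrowest measured 269 bp and the widest 10106 bp. Inside the locus the gap from one peak to the next had a median of 6639 bp, and 63 of the 96 gaps were 10000 bp or shorter. The largest gap, 920921 bp, ran from Ighd across Ighm, the D and J segments and the first 65 V segments and V pseudogenes.

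**Figure D1:**
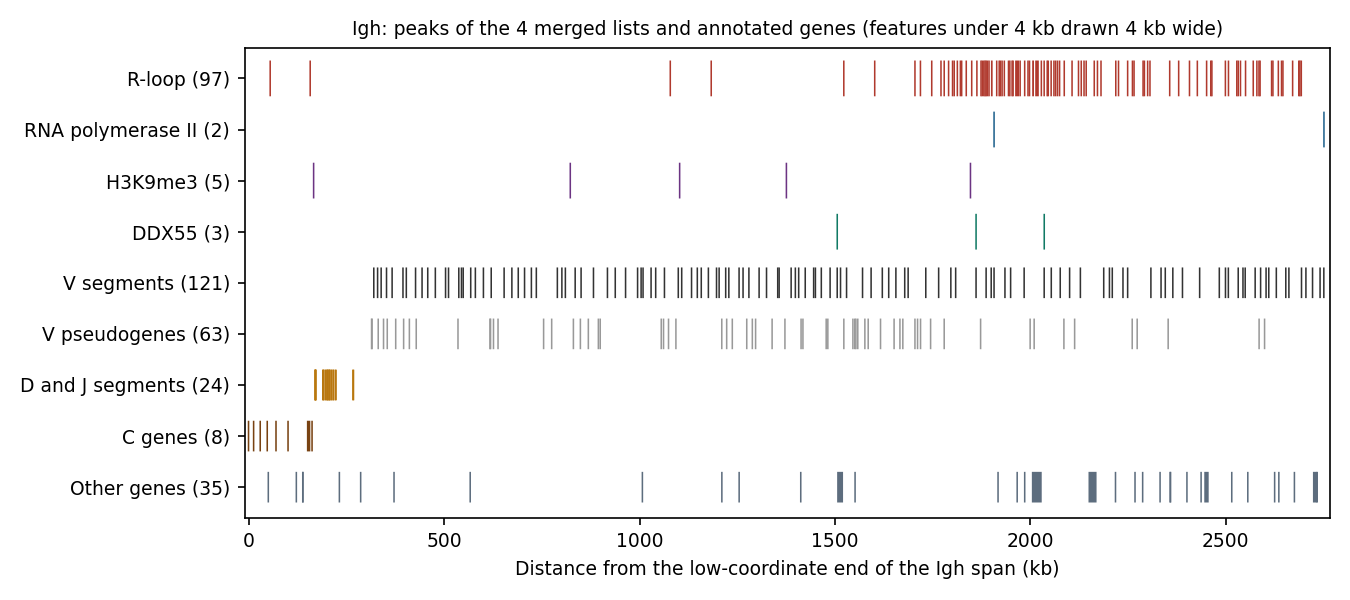
Peaks of the 4 merged lists (upper rows) and annotated genes by class (lower rows) along Igh, in kb from the low-coordinate end of the span; the number of features is in brackets and features under 4 kb are drawn 4 kb wide. R-loop peaks crowd the part of the V region farthest from the constant genes, where 91 of 97 lie in 1 stretch with neighbours up to 50000 bp apart (53 with up to 20000 bp), while the 5 H3K9me3 peaks are scattered.

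The RefSeq table gives start windows inside the R-loop stretch for 3 long noncoding RNA genes, Gm30948, Gm30996 and Gm40900, and each of these genes met R-loop peaks, 3 for Gm30948 and 1 for each of the others. The genes are 25258, 20638 and 11338 bp long in that order, in a stretch with 91 R-loop peaks in 0.990 Mb. Genes of such length can meet peaks by density alone, and a link between these genes and R-loops was not tested. The start regions of the 3 genes are near copies of one another. They are shown because they are the sequences of known strand inside the stretch, each 300 bases long (250 before and 50 after the start) from RefSeq, build GRCm38.p6, plus strand, at chr12:115262401-115262700, chr12:115407364-115407663 and chr12:115703580-115703879. Capitals mark the longest run, 50 bases, that all 3 share without a mismatch.
Gm30948: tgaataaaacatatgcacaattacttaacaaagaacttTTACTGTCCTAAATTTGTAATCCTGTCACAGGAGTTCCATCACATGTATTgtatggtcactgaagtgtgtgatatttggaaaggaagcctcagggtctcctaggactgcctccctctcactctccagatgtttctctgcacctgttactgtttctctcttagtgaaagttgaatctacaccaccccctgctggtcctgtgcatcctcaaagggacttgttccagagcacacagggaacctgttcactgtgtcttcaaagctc
Gm30996: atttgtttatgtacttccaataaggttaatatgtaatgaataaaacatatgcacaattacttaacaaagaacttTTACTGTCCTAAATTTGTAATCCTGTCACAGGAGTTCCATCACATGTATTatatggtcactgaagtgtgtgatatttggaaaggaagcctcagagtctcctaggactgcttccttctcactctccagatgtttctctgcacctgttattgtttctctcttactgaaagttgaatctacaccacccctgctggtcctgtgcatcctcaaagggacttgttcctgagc
Gm40900: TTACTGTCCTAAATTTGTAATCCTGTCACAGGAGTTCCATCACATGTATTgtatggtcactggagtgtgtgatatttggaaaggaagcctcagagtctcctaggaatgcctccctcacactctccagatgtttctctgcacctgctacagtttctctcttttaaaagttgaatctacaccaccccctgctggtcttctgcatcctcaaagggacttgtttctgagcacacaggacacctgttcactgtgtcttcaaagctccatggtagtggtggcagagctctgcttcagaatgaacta

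Over their aligned bases Gm30948 and Gm30996 were 97.3% identical (257 of 264), Gm30948 and Gm40900 94.6% (247 of 261), and Gm30996 and Gm40900 93.8% (211 of 225). The starts lie 144963 bp and 296216 bp apart in that order. A 100-base piece of the Gm30948 window was matched, with at most 20 edits on either strand, in 3 of the 32851 start windows of the RefSeq table, which are these 3. None of the windows itself met an R-loop peak, and the nearest peak lay 750 bp away for Gm30948, 4993 bp for Gm30996 and 4674 bp for Gm40900. G and C made up 44.0%, 39.0% and 46.0% of the windows, against a median of 52.7% over the table. The octamer ATGCAAAT, a motif of immunoglobulin V promoters bound by Oct factors, was searched on both strands. It was in 0 of these 3 windows, in 2 of all 12 start windows within the 3 spans (LOC108169192 in Igk and Gm35545 in Igl, neither met by a peak) and in 1.74% of the table. The table holds no start window for a V segment.

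Among the 10 widest R-loop peaks of Igh, which made up 33.6% of its R-loop base pairs, 2 met a V segment or V pseudogene and 4 met no annotated gene. The widest, 10106 bp from 115219862 to 115229967, covered the pseudogene Gm7142. The next, 9292 bp from 115271237 to 115280528, and a 4719 bp peak from 115263451 both lay in Gm30948, and a 2623 bp peak from 115708554 lay in Gm40900. Ighv1-53 was met by a 4425 bp peak (115157937 to 115162361) and the pseudogene Ighv1-60 by one of 3734 bp (115343719 to 115347452). Those without a gene measured 3822 bp from 115326510, 2840 bp from 115185117, 2799 bp from 115928561 and 2756 bp from 115070650. Just below these 10 came a peak of 2585 bp over the pseudogene Ighv1-48.

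Most R-loop peaks of Igh lay off the V segments, which fill little of the span. Of 97 peaks 15 met a V segment or V pseudogene, 11 met another annotated gene only and 71 (73.2%) met none. Outside the 3 loci 49.9% of R-loop peaks met an annotated gene. A further 8 came within 1000 bp of a V segment without touching it, and the median distance to the nearest V segment was 4725 bp. All annotated genes together cover 7.44% of the Igh span and V segments with V pseudogenes 2.16%. The share of sequence that genes cover elsewhere was not computed, so the 49.9% is not a like comparison.

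Seen from the segments, 15 of 184 (8.15%) met an R-loop peak, against 0.237% of 2529 annotated genes of 200 to 600 bp outside the 3 loci, from which nothing is read because the locus was picked for its R-loop peaks. They belonged to 2 of the 16 Ighv families. Ighv1, the largest family with 92 members, had 11, and Ighv8, with 16, had 4. The other 14 families and the unnumbered segment Gm7003 had 0, and their segments all lie below 114564874, before the stretch begins. Within the stretch itself are 41 Ighv1 and 14 Ighv8 members and no other family. There 10 of the Ighv1 and 4 of the Ighv8 members met a peak. By type 6 of 15 pseudogenes and 8 of 40 other V segments in the stretch did so. R-loop peaks covered 22.9% of the V base pairs of the stretch and 13.6% of its other base pairs. V segments were sparser there (55.6 per Mb) than in the rest of the V cluster (89.1 per Mb).

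The V segments met were Ighv1-52, Ighv1-53, Ighv8-8, Ighv1-58, Ighv1-64, Ighv1-72, Ighv8-13 and Ighv1-73. Among V pseudogenes they were Ighv1-25, Ighv1-44, Ighv1-46, Ighv1-48, Ighv1-60, Ighv8-10 and Ighv8-15. Only Ighv1-25, with a 593 bp peak at 114781187, lies outside the stretch. Pseudogenes of other kinds met by R-loop peaks were Gm7142, Gm7019, Gm9238, Gm5660 and Gm9256.

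**Figure D2:**
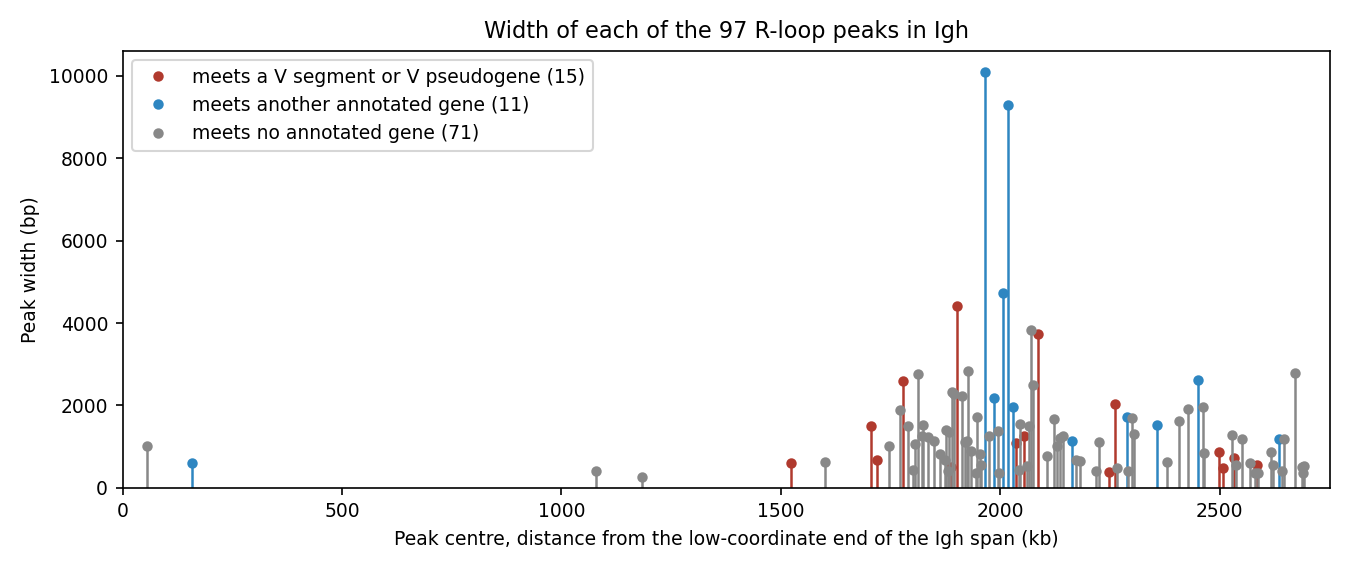
Width in bp of each of the 97 R-loop peaks of Igh against its centre, in kb from the low-coordinate end of the span; colours show whether a peak met a V segment or V pseudogene (15), another annotated gene (11) or none (71). The tallest bars, 10106 and 9292 bp, stand over Gm7142 and Gm30948, and the constant region at the left has 2 peaks.

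At the constant genes of Igh R-loop peaks were few. One of 607 bp (113415714 to 113416320) lay inside Ighd, the IgD constant gene, which has no conventional switch region. Another of 1007 bp (113313151 to 113314157) lay between Ighg2b, 5217 bp away, and Ighg1, 12383 bp away, which encode IgG2b and IgG1 heavy chains. This peak was on the J segment side of Ighg2b, the side on which its switch region precedes it. Whether the peak met that switch region was not tested. No R-loop peak met Ighm, Ighg3, Ighg1, Ighg2b, Ighg2c, Ighe or Igha, nor any of the 24 D and J segments and D pseudogenes. The interval between Ighj4 and Ighm, which holds the heavy chain intronic enhancer and the mu switch region, had no R-loop peak. It did hold an H3K9me3 peak of 813 bp (113424379 to 113425191), 1648 bp from Ighm and 3322 bp from Ighj4. The remaining R-loop peaks outside the stretch measured 414 bp (114337242), 269 bp (114442080) and 632 bp (114860251).

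H3K9me3 showed the reverse order of the loci, with 53 peaks in Igk and 5 in Igh. Per Mb this was 16.7 in Igk and 1.82 in Igh, against 6.09 over the rest of the assembled chromosomes. Igk peaks covered 39769 bp, or 1.25% of its span, and Igh peaks 5008 bp, or 0.182%, against 0.492% elsewhere. The Igh peaks were the one beside Ighm and peaks of 721 bp (114081201), 442 bp (114361187), 2746 bp (114633217) and 286 bp (115105453). None of them met a V segment, an R-loop peak or any annotated gene, against 27.9% of H3K9me3 peaks outside the 3 loci that met a gene. Genes cover 7.44% of the Igh span, so a 0 among 5 peaks says little. The 286 bp peak lay inside the R-loop stretch, 2471 bp from the nearest R-loop peak.

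In Igk the H3K9me3 peaks were spread along the V cluster, with at least 1 in 23 of 32 bins of 100 kb (the last one shorter). They had a median width of 578 bp, close to the 606 bp of the list outside the loci, and 41 of the 53 were under 1000 bp. The widest were 3841 bp (67679252 to 67683092), 28081 bp from the nearest V segment, 2862 bp (70529207 to 70532068), 2271 bp (69848827 to 69851097) and 1658 bp (68288141 to 68289798). The first peak by position was 460 bp at 67661675. The last was the 2862 bp peak, 190493 bp short of Igkj1, with 8 V segments and 3 V pseudogenes in between and no peak of any list at the 5 Igkj segments or at Igkc. Of the 1-Mb windows of chromosome 6, the one from 69000001 held 22 H3K9me3 peaks and the one from 68000001 held 16. Across the genome 160 windows held more than 22 and 340 more than 16, among 1913 windows with any, whose median was 5.

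All but 1 of the H3K9me3 peaks of Igk lay off the V segments. Of 162 V segments and V pseudogenes in Igk 1 met a peak, the pseudogene Igkv12-67, with 11 bp shared with a 405 bp peak. This is 0.617% (exact 95% interval 0.0156 to 3.39, counting error only), against 1.19% of annotated genes of like length outside the loci, near that background. The other 52 peaks met no annotated gene, so 1 of 53 met a gene in Igk, against the 27.9% elsewhere. Genes cover 4.39% of the Igk span and V segments with V pseudogenes 2.70%. The share of sequence that genes cover elsewhere was not computed, so the 27.9% is not a like comparison. The median peak was 7564 bp from the nearest V segment.

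**Figure D3:**
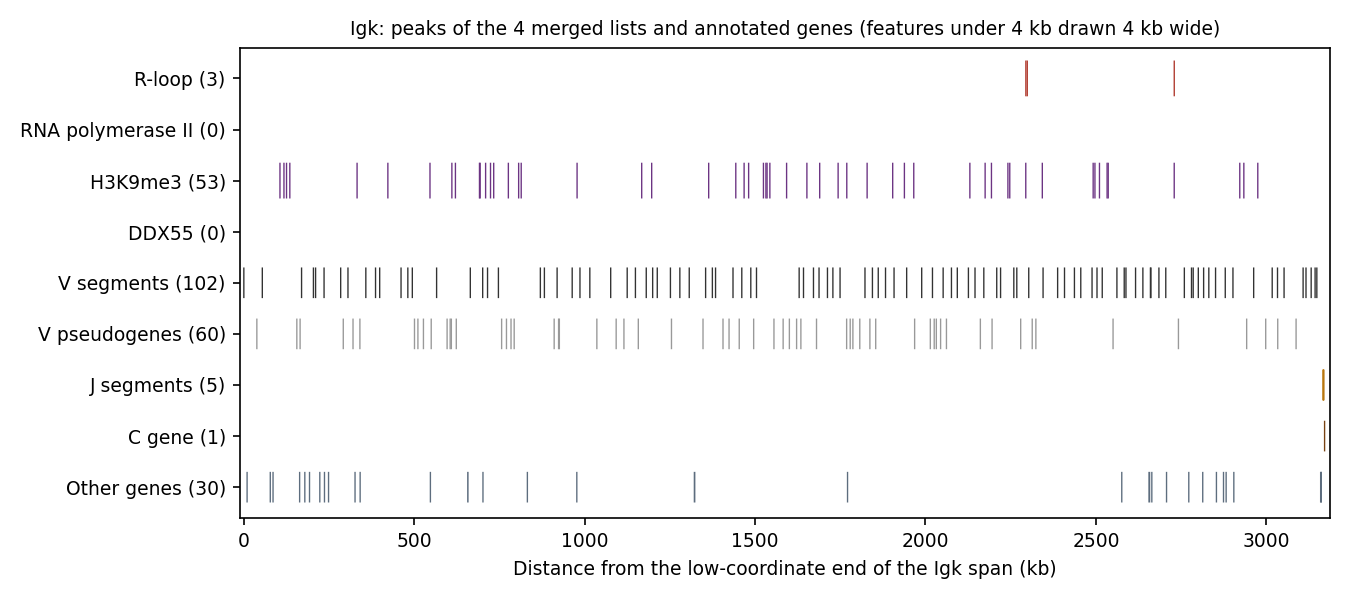
Peaks of the 4 merged lists and annotated genes along Igk, in kb from the low-coordinate end of the span; numbers of features are in brackets and features under 4 kb are drawn 4 kb wide. The 53 H3K9me3 peaks are spread between V segments, 3 R-loop peaks lie towards the right, and no peak lies at the J segments or Igkc at the right edge.

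The 3 R-loop peaks of Igk were 406 bp (69850010 to 69850415), 326 bp (69854167 to 69854492) and 498 bp (70285320 to 70285817). All were below the median width of that list, and none met a gene. The first lay within the 2271 bp H3K9me3 peak, the third overlapped an H3K9me3 peak of 589 bp (70285175 to 70285763), and the second was 3069 bp from one. In Igh 0 of 97 R-loop peaks met an H3K9me3 peak (exact 95% interval 0 to 3.73%, counting error only). Outside Igh and Igk 269 of 1373 (19.6%) did. Tcra, the T cell receptor alpha locus, had 1 of 21 (4.76%, interval 0.121 to 23.8). Peaks of 1 locus lie close together and are not independent, so the difference carries no test. Igh held only 5 H3K9me3 peaks, covering 0.182% of its span, and Tcra held 2. Few overlaps were possible there, so neither low share is read as avoidance.

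RNA polymerase II peaks were few in the immunoglobulin loci. Igh had 2 narrow peaks, and Igk and Igl had 0. One, 351 bp (115165788 to 115166138), shared 290 bp with the 301 bp segment Ighv8-6. The other, 438 bp (116009909 to 116010346), shared 46 bp with Ighv1-86, the last segment, and ran 392 bp past the span. Their widths stood at the 10.6 and 25.9 percentiles of the list. None of the constant genes Ighm, Ighd, Igkc or Iglc1 to Iglc3 met one. Per Mb Igh had 0.727, against 4.04 over the rest of the assembled chromosomes, 7.24 in Tcra (13 peaks), and Tcrb had 8 peaks in 0.667 Mb. The 2 V segments met make 1.09% of 184, against 3.56% of annotated genes of like length outside the loci. Both peaks met a gene, as did 84.3% of the list outside the 3 loci. No R-loop peak of Igh met an RNA polymerase II peak (exact 95% interval 0 to 3.73%, counting error only), against 3.71% of R-loop peaks elsewhere. That interval includes the 3.71%, and Igh held only 2 RNA polymerase II peaks, so the 0 says little. Igk held no RNA polymerase II peak that its R-loop peaks could meet. The nearest R-loop peak to Ighv8-6 was 3426 bp from its RNA polymerase II peak.

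DDX55 had 3 peaks in Igh and each lay on a V segment. They measured 407 bp at 114764474 to 114764880 (270 bp of Ighv1-23), 334 bp at 115119765 to 115120098 (277 bp of Ighv1-50) and 454 bp at 115294139 to 115294592 (224 bp of Ighv8-8). The first also lay in the noncoding RNA gene Gm40899. All 3 segments are annotated as V segments and not as pseudogenes. They make 1.63% of the 184 V segments and V pseudogenes, against 0.0791% (2 of 2529) of annotated genes of like length outside the loci, and the counts on both sides are small. By peaks per Mb Igh had 1.09 against 0.0786 elsewhere. The loci were chosen with earlier results of these data known, so neither comparison carries a test. Because the DDX55 list served KO and WT alike, its peaks in Igh are not shown to depend on DDX55. Outside the 3 loci 58.0% of 212 DDX55 peaks met an annotated gene.

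Ighv8-8 was the single place in these loci where R-loop and DDX55 peaks met, a 1092 bp R-loop peak from 115293624 holding the whole DDX55 peak. Elsewhere 22 of 1373 R-loop peaks (1.6%) met a DDX55 peak, so 1 of 97 (1.03%) is near that background. The DDX55 peak on Ighv1-50 lay 1528 bp from an R-loop peak and the one on Ighv1-23 lay 16306 bp away. RNA polymerase II and DDX55 peaks did not meet each other in Igh. The RNA polymerase II peak on Ighv8-6 was 45689 bp from the nearest DDX55 peak.

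Near the edges of the spans, the outermost R-loop peaks inside Igh were the one of 1007 bp, 54383 bp from the low end, and one of 518 bp at 115951885, 57552 bp from the high end. The nearest outside were 448 bp wide and 3232935 bp below, and 849 bp wide and 160820 bp above. For Igk an R-loop peak of 516 bp and an H3K9me3 peak of 530 bp lay about the same place, 144580 and 144582 bp below the span. The peaks nearest to Igl were H3K9me3 peaks 46968 bp below (411 bp wide) and 87323 bp above (929 bp wide). Igl, with 3 V segments and 3 constant genes, met no peak of any list. At the H3K9me3 density of the rest of the chromosomes a span of 0.234 Mb holds few peaks, so an absence there says little.

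**Figure D4:**
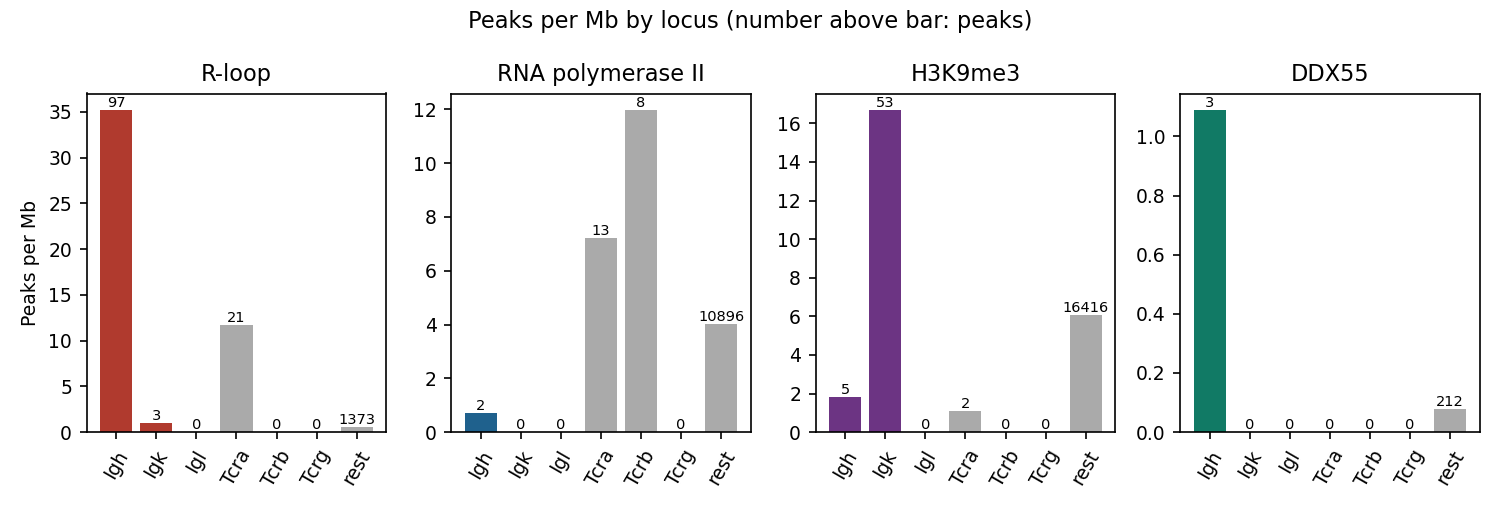
Peaks per Mb of each list in Igh, Igk and Igl (coloured) and in Tcra, Tcrb, Tcrg and all assembled chromosomes outside the 3 immunoglobulin loci (labelled rest, grey), with the number of peaks above each bar; the 4 panels have different vertical scales. Igh stands at 35.3 R-loop peaks per Mb and Igk at 16.7 H3K9me3 peaks per Mb, and RNA polymerase II is highest in Tcrb, with 8 peaks.

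Set beside the T cell receptor loci, Igh had 97 R-loop and 2 RNA polymerase II peaks where Tcra had 21 and 13. R-loop peaks covered 5.09% of Igh and 1.49% of Tcra, and the median width was 1125 bp in Igh and 615 bp in Tcra. Tcrb had 0 R-loop and 8 RNA polymerase II peaks, and Tcrg had 0 of either. Igk had the most H3K9me3 peaks of these loci at 53 (16.7 per Mb), against 2 in Tcra (1.11 per Mb) and 0 in Tcrb and Tcrg. Tcrg spans 0.178 Mb, so its absence of peaks says little. T cells assemble their receptor genes, and how much of these spans remained in the cells used was not examined. Counts over the full T cell receptor spans may therefore not be a like comparison.

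Genes that act on the immunoglobulin loci were read by the same 3000 bp window. For V(D)J recombination 7 of 13 had a peak, namely Atm, Dclre1c (the Artemis nuclease), Nhej1, Polm, Prkdc, Xrcc4 and Xrcc5. The recombinase genes Rag1 and Rag2 and the terminal transferase gene Dntt had none, and neither did Lig4, Poll or Xrcc6. For class switching and hypermutation 7 of 12 had one, including the uracil glycosylase gene Ung, the mismatch repair gene Pms2, the polymerase gene Polh and also Exosc10 and Supt5. Exo1, Msh6, Rif1 and Trp53bp1 were among those without one.

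Of 6 genes of the surrogate light chain and of immunoglobulin assembly and transport, the chaperone gene Hspa5 had a peak, and Igll1, Vpreb1, Vpreb2, Jchain and Pigr did not. Regulators of the loci had 8 of 15, with Ctcf (1492 bp), Ikzf1 (1583 bp) and Yy1 (893 bp) among them and also Ezh2, Irf4, Pou2af1, Pou2f1 and Tcf3. Pax5, Ebf1, Ikzf3, Irf8, Pou2f2, Spi1 and Tcf4 had none. Shares of 53.8%, 58.3%, 16.7% and 53.3% in the order given compare with the 33.5% of all protein-coding genes. R-loop peaks lay at a gene end of 0 members of these 4 lists, against 0.631% of protein-coding genes, H3K9me3 at 0, against 2.96%, and DDX55 at 0, against 0.256%. With so few genes in the lists, a 0 at such low shares says little. Exo1 and Prkdc had an H3K9me3 peak inside the gene.

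**Figure D5:**
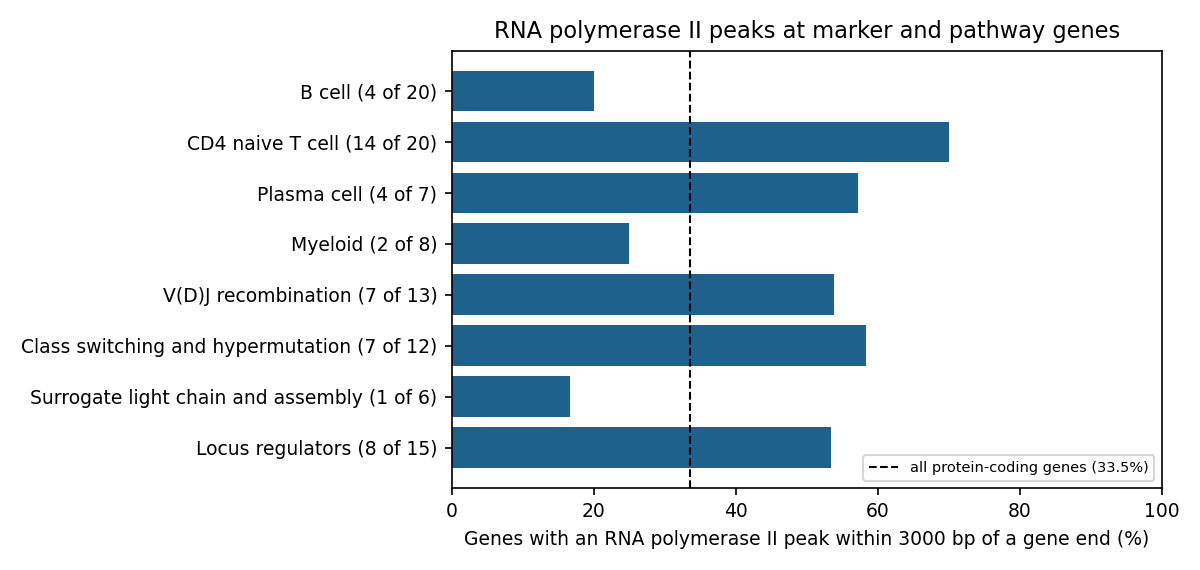
Share of each gene list with RNA polymerase II at a gene end, to 3000 bp on either side (bars, with counts beside the names); the dashed line is the 33.5% of all protein-coding genes. T cell markers stand at 70.0%, B cell markers at 20.0% and surrogate light chain and assembly genes at 16.7%.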

How the data were processed

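CUT&Tag was done on CD4 naive T cells of DDX55 KO and WT mice. The values in the lists the authors deposited are of another unit than counts or signal, namely genomic positions (where each peak starts and ends), without a score. There was 1 merged list per target. Per the submitters' processing notes, MACS3 3.0.0b1, ChIPseeker 1.30.3, fastp 0.12.4, SAMtools 1.15.1 and Bowtie2 2.5.0 were used with build mm10. Peak thresholds, the merging, the use of spike-in DNA or controls, and whether peaks were called per sample are not given in the sources used here. Widths and counts depend on those settings. Multi-mapping rules are likewise not given, and they bear on the V families.

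Genes came from a RefSeq table of GRCm38.p6, whose assembled chromosomes are those of mm10. It gives no strand or exons; strand and sequence of the start windows came from a second RefSeq table of the same build. It holds 21887 protein-coding genes on chromosomes 1 to 19, X and Y, and all comparisons used these chromosomes. Features sharing at least 1 bp were counted as meeting. Python 3.11.15 with pandas 2.3.3 and numpy 2.4.6 did this, tested on simulated data and checked against bedtools 2.31.1. Densities used the extent between the lowest and highest gene or peak of each chromosome. Shares of peaks that met a gene were not adjusted for the share of sequence that genes cover inside and outside the 3 loci. Exact 95% intervals are Clopper-Pearson from scipy 1.17.1, and alignments are from biopython 1.88. No test between conditions was possible.

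The members and gene lists were chosen with earlier results of these data known. The text names constant genes and other genes met by peaks, segments under the 10 widest peaks, the first and last peaks, all DDX55 peaks, all peaks where a locus and list had 5 or fewer, and up to 8 list members with and without a peak in alphabetical order. Further names were chosen after their values were seen, and some list members are not reported here by name. The limit of 50000 bp that joins the R-loop stretch was also set after seeing the peaks. Alternatives were other overlap rules, the wider 50% of each list, joined peaks, wider segments, pseudogenes left out and other gene windows.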

Additional observations from a re-analysis of the deposited data

How the results depend on the processing

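No paired analysis was possible because the lists hold no value per sample, and for the same reason no replicate could be left out. Of 52 recomputed counts whose value given above was over 0, 36 stayed within 1.5 times that value and 16 did not, and 50 others recompute a count of 0 and say nothing of stability. Taking the wider 50% of a list or leaving out pseudogenes lowers a count by construction, so such moves need not mean instability. The 97 R-loop peaks in Igh numbered at least 78 under the rules tried. With only the wider 50% of each list, Igh had 0 RNA polymerase II, 3 H3K9me3 and 1 DDX55 peaks, and Igk had 0 R-loop and 25 H3K9me3 peaks. Placed by midpoint, Igh had 1 RNA polymerase II peak. With pseudogenes left out, 8 Igh segments met an R-loop peak and 0 Igk segments an H3K9me3 peak. With at least 50% of the segment covered, 1 Igh segment met RNA polymerase II and 0 Igk segments H3K9me3. With at least 50% of the R-loop peak covered, 0 in Igh met DDX55. When gene ends reached 1000 bp, RNA polymerase II lay at 2 B cell, 2 plasma cell and 1 myeloid markers, and inside the gene span at 1 B cell marker. With neighbours up to 20000 bp apart, a setting chosen after seeing the data, the largest R-loop stretch held 53 peaks. Depth is unknown, so absent peaks are not absent signal.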
